A study of Mus musculus with 6 samples.

Results

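The 39 genes described here act in DNA replication and S phase. They range from the origin recognition complex and the MCM helicase to the DNA polymerases and the enzymes of nucleotide supply. Also listed are 2 histone and DNA methylation factors that follow the fork, and Ccne1, Ccne2 and E2f1, which act at entry into S phase. All 39 were taken from the table by gene symbol, from a list of names chosen with earlier results of these data known. Shares of all tested genes are given beside their counts for scale and are not a test of the list. Each name was found once among the 18112 genes of the table. RNA-seq was used to ask how loss of Smyd2, a lysine methyltransferase, changes gene expression in vascular smooth muscle cells (VSMCs). Primary VSMCs grown from mouse aorta gave 3 Smyd2 fl/fl and 3 Smyd2 SMC-/- libraries. Both groups came from C57BL/6 mice of 8 to 10 weeks that carried homozygous Smyd2 alleles with loxP sites around exon 2. The Smyd2 SMC-/- mice also carried Cre recombinase under the Tagln (SM22α) promoter, which is active in smooth muscle, and the Smyd2 fl/fl littermates served as controls. No agent was given to either group. The labels give cells at passage 6 in medium with 10% serum, whereas the methods of the study describe passage 4 cells starved overnight. Serum and passage both bear on how many cells enter S phase, and which culture gave these libraries cannot be told from the sources used here. The same sources do not say whether replicates came from separate animals, so p-values measure the spread between these libraries, which may be technical. With 3 libraries per group the smallest possible exact p is 0.1.

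Before S phase, the origin recognition complex with CDC6 and CDT1 loads the MCM helicase onto DNA as an inactive ring. CDC45 and the GINS complex then activate it, and primase, the polymerases, the sliding clamp PCNA and its loader RFC copy the strands behind it. Transcription of many of these genes is driven by E2F factors once cyclin-dependent kinases have released them from RB proteins, and smooth muscle cells of the healthy artery wall seldom divide but re-enter the cycle in culture and after injury.

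Values are FPKM, fragments of a gene per kilobase of transcript and per 1000000 fragments of the library, as deposited. From the steps between low FPKM values, the libraries held an estimated 17400000 to 19900000 fragments, so that 1 fragment on a transcript of 2 kilobases was worth between 0.0251 and 0.0287 FPKM. Limma compared the groups for the 12565 genes whose mean reached 0.5 FPKM, on log2(FPKM + 1), a scale that understates the change of genes at low levels. All 39 genes passed this filter. A gene was called at a Benjamini-Hochberg adjusted p under 0.05 over all tested genes, and every difference is Smyd2 SMC-/- minus Smyd2 fl/fl on this log2 scale, with its standard error (SE). Same-numbered libraries of the groups varied together, but replicate 2 of each group varied with replicate 3 of the other to the same degree, so the data set replicate 1 apart and do not tell pair 2 from pair 3. A second fit took the replicate number as a block, and its results are given where they change a call.

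The targeted gene was measured first as a check of the labels. Smyd2 (gene ID 226830) stood at 7.87, 3.1 and 3 FPKM in replicates 1, 2 and 3 of Smyd2 fl/fl cells. In the same order, Smyd2 SMC-/- cells gave 1.67, 0.4 and 0.8 FPKM, so the groups did not overlap and the gene was lower in 3 of 3 pairs. The difference of -1.48 (SE 0.39) was not called by limma (adjusted p = 0.105) but was called with the replicate block (SE 0.17, adjusted p = 0.0189), and the adjusted p ran from 0.00126 to 0.308 over 15 alternative settings. These values cover all exons of the gene, of which the deletion removes exon 2, and an antisense transcript shares 814 exon bases with Smyd2.

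Replicate 1 of each group stood apart from replicates 2 and 3. Replicate 1 libraries deviated from their group means in the opposite direction to the others, with correlations across genes of -0.508 to -0.557 between groups. For the 39 genes this division was seen in Smyd2 fl/fl cells only, where their levels summed to 764 FPKM in replicate 1, 582 in replicate 2 and 572 in replicate 3. In Smyd2 SMC-/- replicates 1, 2 and 3 the sums were 515, 481 and 359 FPKM, with replicate 3 apart from the others. All 3 of these lay below the lowest sum of the Smyd2 fl/fl libraries, and the group means were 640 ± 108 (SD, n = 3) and 452 ± 81.9 FPKM (SD, n = 3). The sums are of FPKM as deposited and were not rescaled to an equal library total (TPM). That rescaling moved the median difference of all tested genes from -0.02 to 0.095. In bulk RNA, fewer cells in S phase and less of these transcripts per cell cannot be told apart.

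The replication genes stood lower in Smyd2 SMC-/- cells by mean level in 36 of 39 cases, with a median difference of -0.46 where the median of all tested genes was -0.02. Differences ran from -1.12 for Mcm4 to 0.18 for Rfc2, and Rfc1, Rfc2 and Tyms were the 3 genes above 0. For 20 genes the highest Smyd2 SMC-/- value was under the lowest control value, as in 15% of all tested genes, and for 0 genes the groups separated in the other direction, as in 13.1%. After rescaling to TPM the first of these counts was 12, where the share of all tested genes was 9.62%. The second was 0 with TPM, where that share was 18.6%. In single genes the difference seldom passed the test. Limma called 1 gene lower, Fen1, against a background of 1.21% of tested genes, and 0 genes higher, against 1.23%. At an unadjusted p under 0.05 the same fit gave 16 genes lower, against 11.2% of tested genes, and 0 higher, against 9.16%. With the replicate block 8 genes were called lower (Mcm4, Fen1, Pola2, Prim1, Tk1, Rpa1, Cdt1 and Pold1), against 5.72% of tested genes, and 0 higher, against 4.72%. An unadjusted p under 0.05 in the blocked fit was reached by 23 genes in the lower direction, against 2187 of 12565 tested genes, and by 0 in the higher direction, against 14.7%. Without the replicate 1 libraries, limma called 11 genes lower, against 17.3%, and 0 higher, against 12.1%, and the median difference was -0.40. The share called without replicate 1 was thus raised among all genes too.

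**Figure D1:**
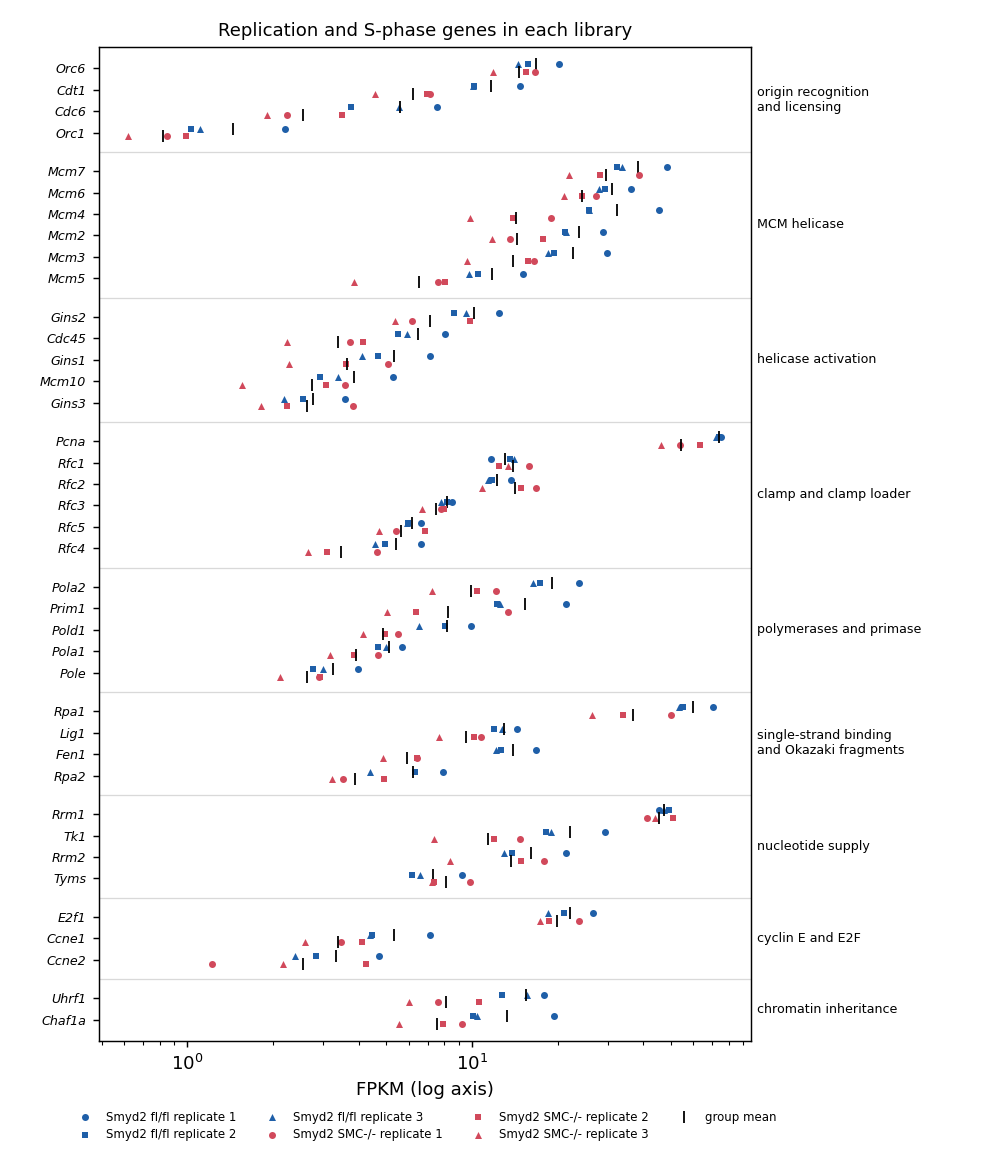
FPKM of the 39 genes (log axis) in each of the 3 Smyd2 fl/fl libraries (blue) and 3 Smyd2 SMC-/- libraries (red), with group means as bars, grouped by role and ordered by mean level. Most red points lie left of the blue points, and blue circles (Smyd2 fl/fl replicate 1) are often the highest, as at Mcm4 with 45.3 FPKM.

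The 3 same-numbered pairs differed in size. The median difference of the 39 genes was -0.48 in pair 1, -0.23 in pair 2 and -0.61 in pair 3, and 35, 30 and 38 genes were below 0 in these pairs. A difference below 0 in all 3 pairs was found for 28 genes, against 29.3% of tested genes. Tyms was the 1 gene above 0 in all 3 pairs.

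**Figure D2:**
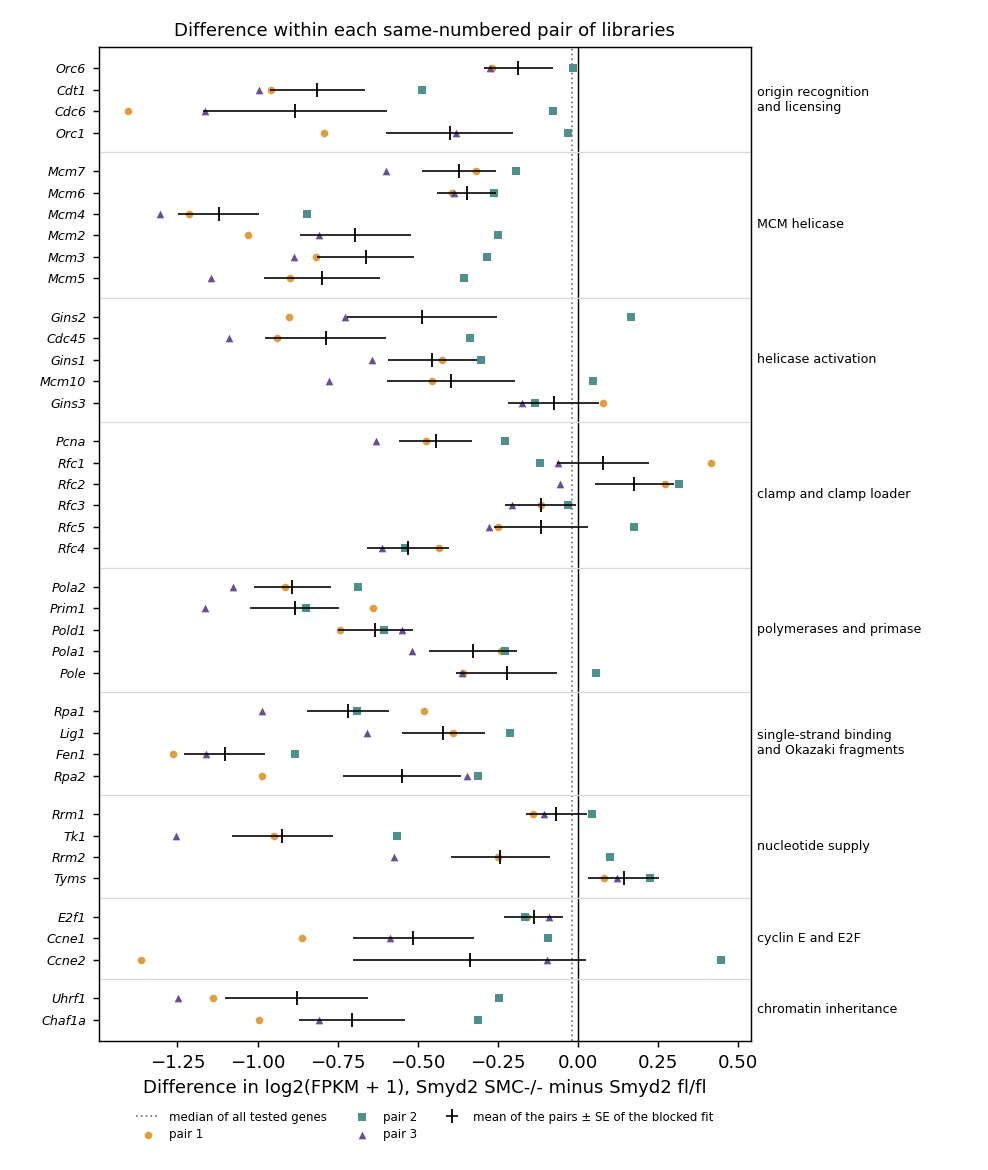
Difference in log2(FPKM + 1), Smyd2 SMC-/- minus Smyd2 fl/fl, of each gene in pair 1 (circles), pair 2 (squares) and pair 3 (triangles). Black bars mark the mean with the SE of the blocked fit, and the dotted line marks the median of all tested genes at -0.02. Pair 2 lies nearest to 0 for most genes, and Rfc1, Rfc2 and Tyms have means right of 0.

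Origin recognition and licensing was represented by Orc1, Orc6, Cdc6 and Cdt1, which together mark origins and load the helicase. All 4 had differences below 0 in every pair, as had 29.3% of all tested genes, and their median was -0.61. The groups did not overlap for 3 of them, where 15% of all tested genes were lower without overlap. Cdt1 (gene ID 67177), the loader whose removal in S phase limits each origin to a single firing, measured 14.8, 10.2 and 10.1 FPKM in Smyd2 fl/fl cells and 7.10, 6.98 and 4.55 FPKM in Smyd2 SMC-/- cells (replicates 1, 2 and 3 in this order, here and for the genes that follow). The lowest Smyd2 fl/fl library was above the highest Smyd2 SMC-/- library. The difference was -0.81 (SE 0.22, limma adjusted p = 0.116) and was called with the block (SE 0.15, adjusted p = 0.0392, range over the alternatives 0.0178 to 0.337). Cdc6 (gene ID 23834), the ATPase that works with CDT1, gave 7.54, 3.75 and 5.52 FPKM in control cells and 2.23, 3.50 and 1.91 FPKM in Smyd2 SMC-/- cells. Its groups did not overlap, but replicate 2 of both lay close together, and the difference of -0.88 (SE 0.28) was not called by limma (adjusted p = 0.147). Orc6 (gene ID 56452), a subunit of the origin recognition complex, was the most abundant of the 4 with 20.2, 15.7 and 14.6 against 16.6, 15.5 and 11.9 FPKM. Its groups overlapped, and the difference was -0.19 (SE 0.19, limma adjusted p = 0.646). Orc1, the largest subunit, was the least abundant of the 39 genes, at 0.62 to 2.20 FPKM.

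Members of a small gene group that differ in the same direction can be compared in their promoters, which were available for 33 of the 39 genes in the RefSeq-based table of assembly GRCm38.p6 (250 bases before to 50 bases after each start, 300 bases in all). An E2F motif of 8 letters (TTTCCCGC, TTTCGCGC, TTTGCCGC or TTTGGCGC, on either strand, where matches on opposite strands can overlap each other) was present for 13 of these 33 genes. Of all genes with a window in the table, 2.6% held it. The CCAAT box, searched on both strands, was present for 21 of the 33 genes and for 41.1% of all genes with a window. Among the 7 genes called with the block that had a window, Cdt1 and Pold1 held the E2F motif. The median difference was -0.42 for the 13 genes with the motif and -0.52 for the 20 without it. A match is a description of the letters in the window and was not tested as a binding site.

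Windows are shown for the 2 genes called with the block that held the motif, for 2 MCM genes with several matches, and for Rfc3, which held 2 matches and differed by only -0.12. Each is printed 5′ to 3′ along the strand of its gene, with the E2F letters in capitals. They lie on GRCm38.p6 at chr8:122567765-122568064 (Cdt1, plus strand), chr7:44548766-44549065 (Pold1, minus strand), chr8:75109259-75109558 (Mcm5, plus strand), chr1:128359656-128359955 (Mcm6, minus strand) and chr5:151651159-151651458 (Rfc3, minus strand).
Cdt1: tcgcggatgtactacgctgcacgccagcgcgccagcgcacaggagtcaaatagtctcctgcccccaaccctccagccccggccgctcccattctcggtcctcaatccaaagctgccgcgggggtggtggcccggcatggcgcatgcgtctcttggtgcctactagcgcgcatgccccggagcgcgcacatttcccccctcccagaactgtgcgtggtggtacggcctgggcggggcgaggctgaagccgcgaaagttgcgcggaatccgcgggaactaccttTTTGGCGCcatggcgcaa
Pold1: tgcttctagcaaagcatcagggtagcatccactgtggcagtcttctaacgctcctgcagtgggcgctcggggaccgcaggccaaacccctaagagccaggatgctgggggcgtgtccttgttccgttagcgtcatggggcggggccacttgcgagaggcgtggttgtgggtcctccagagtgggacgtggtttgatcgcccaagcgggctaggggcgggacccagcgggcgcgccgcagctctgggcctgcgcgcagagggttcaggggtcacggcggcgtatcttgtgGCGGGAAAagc
Mcm5: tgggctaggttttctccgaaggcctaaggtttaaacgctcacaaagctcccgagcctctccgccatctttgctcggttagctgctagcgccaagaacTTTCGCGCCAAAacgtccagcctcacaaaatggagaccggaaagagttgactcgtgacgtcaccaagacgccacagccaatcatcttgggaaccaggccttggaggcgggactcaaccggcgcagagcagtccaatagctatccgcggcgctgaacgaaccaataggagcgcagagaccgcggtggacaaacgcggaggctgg
Mcm6: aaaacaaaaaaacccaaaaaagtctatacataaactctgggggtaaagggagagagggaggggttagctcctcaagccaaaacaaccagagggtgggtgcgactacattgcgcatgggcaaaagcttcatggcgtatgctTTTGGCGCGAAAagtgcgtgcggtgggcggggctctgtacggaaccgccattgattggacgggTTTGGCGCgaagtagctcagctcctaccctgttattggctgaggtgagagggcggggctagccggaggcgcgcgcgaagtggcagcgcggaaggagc
Rfc3: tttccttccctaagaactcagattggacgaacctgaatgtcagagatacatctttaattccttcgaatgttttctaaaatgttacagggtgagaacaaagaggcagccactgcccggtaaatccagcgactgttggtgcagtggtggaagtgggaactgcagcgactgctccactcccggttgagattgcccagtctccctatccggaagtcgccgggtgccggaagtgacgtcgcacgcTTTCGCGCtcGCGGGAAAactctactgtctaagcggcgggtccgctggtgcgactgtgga
Cdt1 and Pold1 carried 1 match each, Mcm5 and Rfc3 carried 2, and Mcm6 carried 3. In Mcm5, and at the first site of Mcm6, matches on opposite strands overlapped and form a single capital run.

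The MCM2 to MCM7 proteins form the ring that unwinds DNA at the fork. All 6 genes were below 0 in every pair, as were 29.3% of all tested genes. The groups did not overlap for 5 of them, where 15% of all tested genes were lower without overlap. Their median difference of -0.68 was the lowest of any role with more than 2 genes. Mcm4 (gene ID 17217) measured 45.3, 25.9 and 25.7 FPKM in Smyd2 fl/fl cells and 18.96, 13.96 and 9.84 FPKM in Smyd2 SMC-/- cells. Smyd2 fl/fl replicate 1 was far above the other libraries, and each Smyd2 SMC-/- library was below all of the controls. The mean in Smyd2 SMC-/- cells was 0.441 of that in Smyd2 fl/fl cells, and the difference of -1.12 (SE 0.30) was not called by limma (adjusted p = 0.112) but was called with the block (SE 0.13, adjusted p = 0.0182, range over the alternatives 0.00256 to 0.326). Mcm7 (gene ID 17220), the most abundant of the ring, gave 48.6, 32.4 and 33.8 FPKM against 38.8, 28.2 and 22.0 FPKM. Its groups overlapped because Smyd2 SMC-/- replicate 1 stood above Smyd2 fl/fl replicates 2 and 3, and the difference was -0.37 (SE 0.25, limma adjusted p = 0.473). Differences of Mcm2, Mcm3, Mcm5 and Mcm6 lay between -0.80 and -0.35 without being called in either fit.

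Helicase activation was measured by Cdc45, Gins1, Gins2, Gins3 and Mcm10, which complete the active helicase and open the origin. Their median difference was -0.46, and none of the 5 was called by limma with or without the block. Below 0 in every pair were 2 of them, where 29.3% of all tested genes were. Cdc45 (gene ID 12544) measured 8.04, 5.49 and 5.89 FPKM in control cells and 3.72, 4.14 and 2.24 FPKM in Smyd2 SMC-/- cells. The groups did not overlap, and the difference was -0.79 (SE 0.24, limma adjusted p = 0.135). Gins2 (gene ID 272551), with 12.4, 8.64 and 9.54 against 6.18, 9.82 and 5.37 FPKM, overlapped because Smyd2 SMC-/- replicate 2 stood above Smyd2 fl/fl replicates 2 and 3. That difference was -0.49 (SE 0.24, limma adjusted p = 0.319). Gins3 was close to 0 at -0.08.

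The clamp and its loader were the role with the smallest differences, with a median of -0.12. Pcna (gene ID 18538), the sliding clamp that tethers polymerases, was the most abundant of the 39 genes in every library, at 75.3, 74.1 and 71.9 FPKM in control cells and 53.9, 63.2 and 46.1 FPKM in Smyd2 SMC-/- cells. Control libraries lay within a narrow band above all Smyd2 SMC-/- libraries, and the difference of -0.44 (SE 0.14) was not called by limma (adjusted p = 0.159). Rfc4 (gene ID 106344), a small subunit of the loader, measured 6.62, 4.96 and 4.58 against 4.64, 3.10 and 2.65 FPKM. Smyd2 SMC-/- replicate 1 overlapped the controls, while every pair differed downward, and the difference was -0.53 (SE 0.22, limma adjusted p = 0.251). The other subunits were nearer to 0 or above it, at 0.08 for Rfc1, 0.18 for Rfc2, -0.12 for Rfc3 and -0.12 for Rfc5.

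Polymerases and primase start and extend the new strands. Pola2 (gene ID 18969), the B subunit of the polymerase alpha-primase complex, measured 23.7, 17.3 and 16.4 FPKM in Smyd2 fl/fl cells and 12.1, 10.4 and 7.26 FPKM in Smyd2 SMC-/- cells. All controls lay above all Smyd2 SMC-/- libraries, with a difference of -0.89 (SE 0.23, limma adjusted p = 0.0957) that was called with the block (SE 0.12, adjusted p = 0.0239, range over the alternatives 0.00631 to 0.323). Prim1 (gene ID 19075), the catalytic subunit of primase, gave 21.4, 12.27 and 12.54 FPKM against 13.4, 6.36 and 5.04 FPKM. Here Smyd2 SMC-/- replicate 1 lay above Smyd2 fl/fl replicates 2 and 3, so that the groups overlapped although the pairs differed by -0.64, -0.85 and -1.17. The difference was -0.88 (SE 0.37, limma adjusted p = 0.247) and was called with the block (SE 0.14, adjusted p = 0.0311, range over the alternatives 0.00143 to 0.572). Pold1 (gene ID 18971), the catalytic subunit of polymerase delta, measured 9.89, 8.02 and 6.54 against 5.51, 4.93 and 4.15 FPKM. The 3 pairs were alike, at -0.74, -0.61 and -0.55, and the difference of -0.63 (SE 0.19, limma adjusted p = 0.133) was called with the block (SE 0.12, adjusted p = 0.0407, range over the alternatives 0.0205 to 0.392). Pola1 and Pole, the catalytic subunits of polymerases alpha and epsilon, differed by -0.33 and -0.22 and were not called in either fit.

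Among the genes for single-strand binding and Okazaki fragments was the one gene called without the block. Fen1 (gene ID 14156), the flap nuclease that trims Okazaki fragments, measured 16.9, 12.7 and 12.1 FPKM in Smyd2 fl/fl cells and 6.43, 6.41 and 4.88 FPKM in Smyd2 SMC-/- cells. The groups were well apart, and the pairs differed by -1.26, -0.88 and -1.16. The mean in Smyd2 SMC-/- cells was 0.425 of the control mean, and the difference of -1.10 (SE 0.18) passed limma's test (adjusted p = 0.0387, with the block 0.0184, range over the alternatives 0.00176 to 0.167). Leaving out any single library other than Smyd2 SMC-/- replicate 1 took the adjusted p above 0.05, up to 0.167, while the difference stayed between -1.19 and -0.97. Fen1 shares 1909 exon bases with an annotated antisense gene and 130 with Tmem258 on the opposite strand. Counting by strand is not stated in the sources used here, so whether reads of these genes were told apart is not known. Rpa1 (gene ID 68275), the large subunit of the single-strand binding protein RPA, gave 70.5, 55.3 and 53.5 FPKM against 50.3, 34.0 and 26.5 FPKM. Its groups did not overlap, and the difference of -0.72 (SE 0.25, limma adjusted p = 0.178) was called with the block (SE 0.13, adjusted p = 0.0376, range over the alternatives 0.00325 to 0.449). Rpa2 and Lig1, the DNA ligase that seals the fragments, were below 0 in every pair, at -0.55 and -0.42, without being called.

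Nucleotide supply divided between its members. Tk1 (gene ID 21877), the S-phase thymidine kinase of the salvage route, measured 29.4, 18.2 and 19 FPKM in control cells and 14.8, 12.0 and 7.38 FPKM in Smyd2 SMC-/- cells. The groups did not overlap, and the difference of -0.92 (SE 0.29, limma adjusted p = 0.147) was called with the block (SE 0.16, adjusted p = 0.035, range over the alternatives 0.0173 to 0.375). Rrm1 (gene ID 20133), the large subunit of ribonucleotide reductase, was the most abundant of this role with 45.5, 49.4 and 47.2 against 41.2, 50.9 and 43.9 FPKM. All controls lay within the range of the Smyd2 SMC-/- libraries, and the difference was -0.07 (SE 0.13, limma adjusted p = 0.824). After rescaling to TPM, which moved the median of all tested genes from -0.02 to 0.10, it was 0.06 and still below that median. Rrm2, the subunit whose level follows the cell cycle, differed by -0.24, and Tyms, which makes thymidylate anew, by 0.14. Neither was called in either fit.

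Cyclin E and E2F1 act at entry into S phase. E2f1 (gene ID 13555), an activator of the replication genes, measured 26.6, 21.1 and 18.5 FPKM in Smyd2 fl/fl cells and 23.7, 18.7 and 17.3 FPKM in Smyd2 SMC-/- cells. The groups overlapped, and the pairs differed by -0.16, -0.16 and -0.09. The difference of -0.14 (SE 0.19) was not called by limma (adjusted p = 0.742). Ccne1 (gene ID 12447), a cyclin that activates CDK2, gave 7.10, 4.44 and 4.39 against 3.46, 4.10 and 2.59 FPKM. All controls were above all Smyd2 SMC-/- libraries, and the difference was -0.51 (SE 0.23, limma adjusted p = 0.28). Ccne2 was the least uniform of the 39 genes, with pair differences of -1.36, 0.45 and -0.10.

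Uhrf1 and Chaf1a work behind the fork, where UHRF1 guides maintenance of DNA methylation and CHAF1A deposits histones on new DNA. Uhrf1 (gene ID 18140) measured 17.98, 12.77 and 15.7 FPKM in Smyd2 fl/fl cells and 7.62, 10.6 and 6.01 FPKM in Smyd2 SMC-/- cells. The groups did not overlap, and the difference of -0.88 (SE 0.23) was not called by limma (adjusted p = 0.0997). Chaf1a differed by -0.71 and its groups did not overlap either, but it shares 4648 exon bases with Ubxn6 on the opposite strand. Ubxn6 was also measured, so part of their reads may be shared. Gins2 overlaps Gse1 by 2758 exon bases in the same way. Shorter overlaps on the opposite strand include Rfc2 with Lat2 (952 bases), Ccne2 with Ints8 (609), Rfc5 with Wsb2 (499) and Mcm7 with Ap4m1 (321). Pcna and Tyms have annotated processed pseudogenes.

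The differences were also compared by chromosome, which the choice of genes did not use. By chromosome, the median of all tested genes ran from -0.42 on chromosome 19 (424 genes) to 0.28 on chromosome 5 (739 genes), with -0.37 on chromosome 10 (574 genes) and -0.21 on chromosome 16 (363 genes). These 4 medians kept their sign in each of the 3 pairs. On chromosome 5 lay 7 of the 39 genes (Mcm7, Rfc1, Rfc2, Rfc3, Rfc5, Pole and Tyms), among them all 3 with a difference above 0, and their median was -0.12. On chromosomes 10, 16 and 19 lay Prim1, Mcm4, Cdc45, Rfc4, Pola2 and Fen1, with a median of -0.89. All were below 0 in every pair (29.3% of all tested genes were). Among them were 4 of the 8 genes called in the blocked fit. On chromosomes 10, 16 and 19, 81.7%, 76.6% and 86.1% of all tested genes were below 0 by mean. The share of all genes called on these chromosomes was not counted, so the 4 calls cannot be set against it. The other 26 genes had a median of -0.47, and all were below 0 by mean. With the block 4 of them were called, where 5.72% of all tested genes were called lower. The 3 genes of chromosome 11 had a median of -0.88, where that of all its tested genes was -0.11. Chromosomes 5, 10, 16 and 19 were singled out after their medians had been seen. In an alternative chosen after seeing the data, the chromosome's median deviation was subtracted from each library. The part of chromosome position in the differences was not tested. All 39 genes were then below 0, with a median of -0.49, and the 7 genes of chromosome 5 were among them. Limma then called 0 genes without the block and 1, Mcm4, with it (adjusted p = 0.0342). Fen1 was at -0.68 in that fit and was not called (adjusted p = 0.116, blocked 0.054). Cdt1, Tk1, Rpa1 and Pold1 were at -0.87, -0.81, -0.60 and -0.59 in that fit, and Prim1 and Pola2 at -0.51 and -0.47. None of these genes was called there (blocked limma adjusted p from 0.0521 for Cdt1 to 0.0945 for Pola2). With the block, 711 of all tested genes were called in that fit, and 1312 before. Why calls were lost was not tested.

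**Figure D3:**
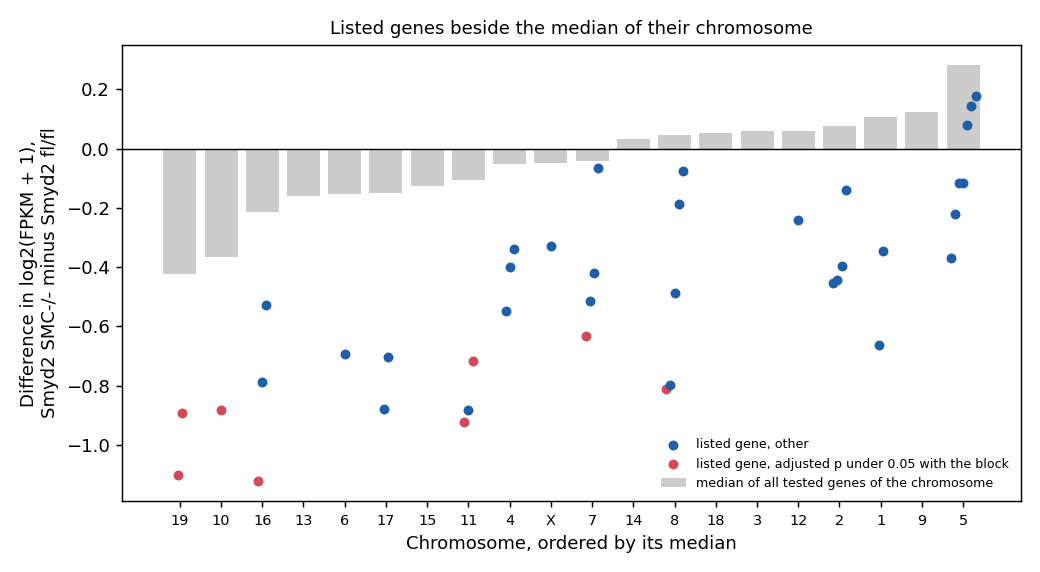
Difference in log2(FPKM + 1), Smyd2 SMC-/- minus Smyd2 fl/fl, of the 39 genes (points, red where called with the replicate block) on each chromosome, with the median of all tested genes of that chromosome as grey bars from 0. Chromosomes are ordered by this median, from -0.42 on chromosome 19 to 0.28 on chromosome 5, and each point lies below the median of its chromosome.

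Another 60 genes of replication, among them further subunits of the same complexes, checkpoint and chromatin factors, had a median difference of -0.37, and 48 were below 0. Without Smyd2 fl/fl replicate 1 this median was -0.19, and without Smyd2 SMC-/- replicate 3 it was -0.23. Limma called 1 of the 60 lower (Rnaseh2c), against 1.21% of tested genes, and 0 higher. With the block it called 4 of the 60 lower, close to the 5.72% of tested genes, and 0 higher. Without the block, an unadjusted p under 0.05 was reached by 16 in the lower direction (11.2% of tested genes) and 0 in the higher. With the block it was reached by 23 of the 60 in the lower direction, against 2187 of 12565 tested genes, and by 0 in the higher. The 4 called with the block were Hells, Rnaseh2c, Timeless and Gmnn. Hells (gene ID 15201), a chromatin remodeller of the SNF2 family, measured 25.2, 11.47 and 12.46 against 8.21, 6.67 and 4.12 FPKM, a difference of -1.20 (SE 0.35, limma adjusted p = 0.127, blocked 0.0311, range over the alternatives 0.00742 to 0.362). Rnaseh2c (gene ID 68209), a subunit of RNase H2, measured 29.6, 33.0 and 26.0 against 13.9, 14.8 and 15.8 FPKM, a difference of -0.94 (SE 0.14, limma adjusted p = 0.0239, range over the alternatives 0.00241 to 0.148). Both lie on chromosome 19. Timeless, a fork protection factor encoded on chromosome 10, differed by -0.82 (blocked limma adjusted p = 0.0418, range over the alternatives 0.00937 to 0.373). Gmnn, the inhibitor of CDT1, differed by -0.64 (blocked limma adjusted p = 0.0406, range 0.0257 to 0.404). Top2a, a topoisomerase abundant in cycling cells, gave 34.3, 24.1 and 28.0 against 23.7, 22.4 and 14.2 FPKM and was not called (-0.52, SE 0.23, limma adjusted p = 0.275).

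The upstream regulators stood nearer to the background. Of 26 genes of the E2F and RB system, 25 were tested, and their median difference was -0.12, with 16 below 0. Limma called 0 of them. By unadjusted p under 0.05, 3 of the 25 were lower and 2 higher, near the 11.2% and 9.16% of tested genes. In the blocked fit 4 were lower and 3 higher by that measure, against 2187 of 12565 and 14.7% of tested genes. The blocked fit called 1 of the 25 higher, near the 4.72% of tested genes, so the list as a whole did not stand out. That gene was Cdkn1a (gene ID 12575), encoding the inhibitor p21 that blocks cyclin-dependent kinases and binds PCNA, with 159, 162 and 154 FPKM in control cells and 223, 252 and 222 FPKM in Smyd2 SMC-/- cells. All Smyd2 SMC-/- libraries were above all controls, a difference of 0.55 (SE 0.12, limma adjusted p = 0.0638, blocked 0.0371, range over the alternatives 0.0101 to 0.237). The inhibitors Cdkn1b and Cdkn2a differed by -0.16 and 0.07, and for both all controls lay within the range of the Smyd2 SMC-/- libraries. Ccnd1, encoding cyclin D1, gave 65.0, 116 and 120 against 58.5, 136 and 84.5 FPKM, with a replicate 1 library lowest in each group, and differed by -0.14 (SE 0.36, limma adjusted p = 0.881). Of the 25 genes, 3 were lower without overlap and 2 higher, against 15% and 13.1% of tested genes. Beside Cdkn1a these were E2f7 (-1.04, the largest difference of the list), Ccnd3 (-0.535), Myc (-0.54) and E2f6 (0.476), which were called in neither fit.

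Genes of mitosis, which follow S phase in the cycle, showed a difference that depended on the pair. Of 34 such genes 33 were below 0, with a median of -0.42, but the medians of the pairs were -0.42, 0.01 and -0.80. Without Smyd2 SMC-/- replicate 3 the median was -0.12, and without Smyd2 fl/fl replicate 1 it was -0.18. Limma called 0 of the 34. By unadjusted p under 0.05, 4 of the 34 were lower, near the 11.2% of tested genes, and 0 higher. In the blocked fit 12 of the 34 were lower by that measure, against 2187 of 12565 tested genes, and 0 higher. With the block limma called 3 of the 34 lower, where 5.72% of tested genes were. These were Incenp at -1.04 (adjusted p = 0.0274, range over the alternatives 0.0082 to 0.353) and Kif11 at -0.74 (0.0424, range 0.00914 to 0.597), both on chromosome 19, and Cdk1 on chromosome 10 at -0.69 (0.0488, range 0.0488 to 0.555). Mki67, the marker of cycling cells, measured 26.4, 14.8 and 22.4 against 17.2, 14.7 and 8.97 FPKM. Replicate 2 of both groups was nearly equal, and the difference of -0.61 (SE 0.29) was not called by limma (adjusted p = 0.307). Whether the lists differ from each other was not tested.

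**Figure D4:**
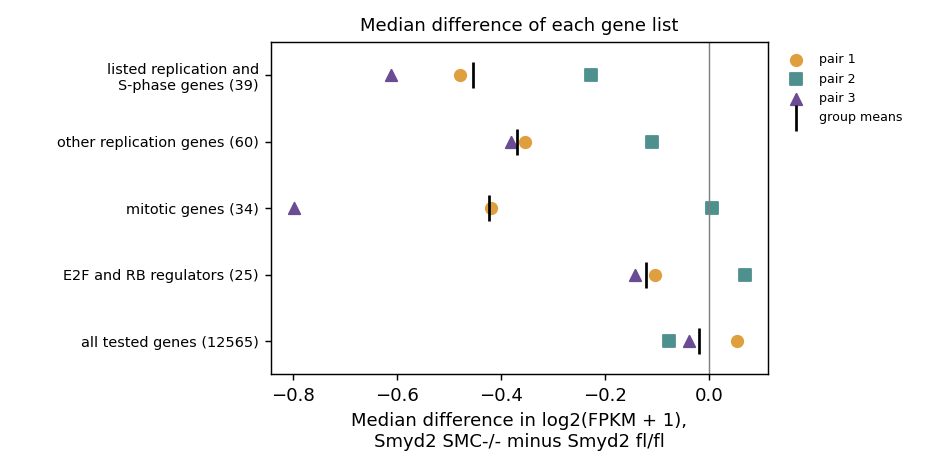
Median difference in log2(FPKM + 1), Smyd2 SMC-/- minus Smyd2 fl/fl, of each gene list by pair (coloured points) and between group means (bars), with the number of tested genes in brackets. The 39 replication genes lie below 0 in all 3 pairs at -0.48, -0.23 and -0.61, whereas the mitotic genes are at 0.01 in pair 2.

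Marker genes of the cells themselves also differed between the groups. Of 9 smooth muscle markers 6 passed the filter, and limma called 1, Acta2, lower (1.21% of all tested genes were), with 761, 682 and 683 against 201, 268 and 262 FPKM, and Tagln stood at 80.5, 79.1 and 70.3 against 12.46, 87.3 and 57.1 FPKM. Of the other 4 tested, Cnn1, Smtn and Actg2 differed by -0.91, -0.05 and -0.97 and Lmod1 by 0.24, and none was called in either fit. Myh11, Des and Myocd, which mark contractile smooth muscle, stayed under 1 FPKM in every library. The 9 genes summed to 924, 823 and 816 FPKM in control cells and to 264, 430 and 377 FPKM in Smyd2 SMC-/- cells, with Acta2 the most abundant in each. Of 8 fibroblast-associated genes limma called 1 lower, Dpt, with 144, 90.3 and 65.5 against 3.31, 1.15 and 0.63 FPKM, and the blocked fit called 3 of the 8 lower (Dpt, Cd34 and Ly6a), where 1.21% and 5.72% of all tested genes were called lower in these fits. Pdgfra (-1.66, without overlap) and Pi16 (-1.32) were also below 0 and were called in neither fit. The other 3 were above 0 and not called, Col1a1 (362, 444 and 491 against 1333, 831 and 522 FPKM, without overlap), at 0.95 (SE 0.34, limma adjusted p = 0.186), Lum at 1.82 (SE 0.95) and Dcn at 0.53 (SE 1.49). Dcn stood at 13.9, 311 and 257 against 25.6, 383 and 350 FPKM, with replicate 1 of both groups far below the other libraries. Their summed levels were 663, 1362 and 1275 against 1414, 1402 and 1037 FPKM, with Col1a1 the most abundant in each. Of 8 endothelial markers 1 and of 8 macrophage markers 4 passed the filter, and none of these was called in either fit. Kdr, the endothelial gene tested, stood at 0.47, 0.58 and 0.84 against 0.96, 5.15 and 2.96 FPKM, without overlap. Csf1r of the macrophage list was also higher without overlap, at 0.58, 0.53 and 0.48 against 1.66, 1.42 and 1.14 FPKM. Cd68, Lyz2 and Cd14 overlapped and differed by -0.004, -0.64 and -0.40. Pecam1, Cdh5, Tek, Vwf, Tie1, Erg and Emcn of the endothelial list stayed under 1 FPKM, as did Ptprc, Adgre1, Itgam and Mrc1 of the macrophage list. The endothelial list summed to between 1.5 and 5.4 FPKM over the libraries, with Pecam1 or Kdr the most abundant, and the macrophage list to between 18.4 and 42.6 FPKM, with Cd14 the most abundant. The part of these markers in the differences of the replication genes was not tested.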

How the data were processed

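The deposited FPKM values were computed by the authors with RSEM after read filtering with SOAPnuke and alignment with HISAT and Bowtie2; the genome build, tool versions and strand handling are not given in the sources used here. The labels and the methods also differ on RNA extraction, library preparation and sequencing, and which applies to these libraries could not be told. The table holds values at 2 decimals for 18112 genes, of which 1125 have no symbol. The 12565 genes whose mean reached 0.5 FPKM were compared on log2(FPKM + 1) with limma 3.58.1 (trend and robust variance, R 4.3.3), with Benjamini-Hochberg adjustment over all tested genes, and the code was first run on simulated data. Tables and figures were made with Python 3.11.15, pandas 2.3.3, numpy 2.4.6 and matplotlib 3.10.9.

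Same-numbered libraries were checked for pairing by correlating each library's deviations from its group mean. The correlations were 0.615, 0.46 and 0.527 for replicates 1, 2 and 3. Between Smyd2 fl/fl replicate 2 and Smyd2 SMC-/- replicate 3 the correlation was 0.461, and between Smyd2 fl/fl replicate 3 and Smyd2 SMC-/- replicate 2 it was 0.439, while those of replicate 1 with the other numbers ran from -0.557 to -0.508. The data thus set replicate 1 apart and do not tell pair 2 from pair 3. The labels give the numbers without saying what they mark. The number was used as a block in an alternative fit because each same-numbered correlation was above 0.1. Other alternatives were a pseudocount of 0.1, no filter, each library left out, replicates 2 and 3 only, rescaling to TPM, quantile normalization and the cutoffs of the study's methods. TPM with the block and the removal of chromosome medians, with and without the block, were added after the data had been seen.

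Genes are described with values where they were called in either fit or had the largest difference or highest mean of their role. The member genes and the lists (other replication genes, E2F and RB regulators, mitotic genes and markers of smooth muscle, endothelium, fibroblasts and macrophages) were chosen with earlier results of these data known. Fragment totals were estimated from the steps between low values, of which 69.6% to 71.7% fell no more than 0.15 from a whole fragment (30% by chance). Chromosomes and exon overlaps came from GENCODE M21 (GRCm38), which placed 11650 of the tested genes, and promoter windows from RefSeq on GRCm38.p6.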

Additional observations from a re-analysis of the deposited data

How the results depend on the processing

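Culture conditions, number of animals and strand handling could not be settled from the sources, and bulk RNA does not separate cell number from RNA per cell. The direction held best: the median difference of the 39 genes stayed between -0.56 and -0.33 over all alternatives, with 34 to 39 genes below 0. In every setting 32 genes were below 0, and Ccne2, Gins3, Rfc1, Rfc2, Rrm1, Rrm2 and Tyms were on both sides of 0. The 19 genes described singly were chosen partly for their size, and 283 of their 285 differences were negative. The 2 above 0 were Rrm1 at 0.056 with TPM, without and with the block, where the median of all tested genes was 0.095.

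Calls depended on the setting, and the cause was not tested. Of the 39 genes limma called 1; 0 without the filter, with TPM, with chromosome medians removed or at the methods' cutoffs; 0 to 2 with a library left out (0 without any library but Smyd2 SMC-/- replicate 1, and 2 without that one); 8 with the block, 6 with TPM and block, and 11 with replicates 2 and 3 only. Of all tested genes, 5.72% were called lower with the block, 448 of 13563 with TPM and block, and 17.3% with replicates 2 and 3 only. Groups did not overlap for 20 genes, and for 12 with TPM, all lower (with TPM 9.62% of all tested genes were lower without overlap and 18.6% higher).

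The count for other replication genes went from 1 to 4 (block), 13 lower of 60 (replicates 2 and 3, where 17.3% of all tested genes were lower), 2 (TPM with block), and 0 with chromosome medians removed (without or with block), at the methods' cutoffs and without Smyd2 fl/fl replicate 2 or 3 or Smyd2 SMC-/- replicate 2 or 3. With a library left out, their median of -0.37 ran from -0.432 (without Smyd2 SMC-/- replicate 1) to -0.191 (without Smyd2 fl/fl replicate 1). With a library left out, the median of the mitotic genes, -0.42, ran from -0.628 (without Smyd2 SMC-/- replicate 1) to -0.115 (without Smyd2 SMC-/- replicate 3). Mitotic genes called went from 0 to 3 lower of 34 with the block, where 5.72% of all tested genes were lower. With replicates 2 and 3 only, 3 of 34 were lower, where 17.3% of all tested genes were. The count was 1 with TPM and block, and 0 with chromosome medians removed (without and with block). E2F and RB regulators went from 0 to 1 (block), 8 of 25 (replicates 2 and 3, 4 lower and 4 higher, where 17.3% and 12.1% of all tested genes were), 1 (TPM), 1 (quantile), 2 (TPM with block) and 1 (chromosome medians removed, block). With TPM and block, 448 of all 13563 tested genes were called lower and 961 higher. The other replication and mitotic genes called in that fit were lower, and the E2F and RB regulators higher.

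All genes called numbered 306, and 1312 with the block, 3667 with replicates 2 and 3, 1409 with TPM and block, 197 and 711 with chromosome medians removed (without and with block) and 53 at the methods' cutoffs. Leaving out Smyd2 fl/fl replicate 2 or 3 gave 34 or 36, and leaving out Smyd2 SMC-/- replicate 1, 2 or 3 gave 682, 55 or 39. With TPM 346 were called, 100 lower and 246 higher. Smyd2 was called at -1.48 with the block, -1.35 with replicates 2 and 3, -1.77 with TPM and block, and -1.60 with chromosome medians removed and block. Apart from the calls named in the report as made with the block, the block changed no call among the genes described singly.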
